A study of Mus musculus with 6 samples.

Results

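The myostatin, activin and follistatin axis was followed at the transcript level in hind leg muscle of exercise (EX) and control (Con) mice. Its 10 genes were taken by symbol from the deposited table of 16759 genes, and all 10 were found there. They are the ligands Mstn, Gdf11 and Inhba, the follistatin family members Fst, Fstl1 and Fstl3, the type II receptors Acvr2a and Acvr2b, the signal carrier Smad3 and the inhibitory Smad7. All mice were male C57BL/6J, 8 weeks old when they were assigned to a group. The 3 EX mice ran on an electric treadmill for 60 min on 5 days of each of 6 weeks, which came to 22 km, and tissue was taken 24 h after they last ran. The 3 Con mice had no treadmill training, and the sources used here do not say when their tissue was taken. The libraries held between 13845362 and 15585048 counts in Con and between 16080487 and 16240431 in EX. Each library was taken to be a small piece of muscle of 1 mouse. The sources do not name the muscle of the hind leg from which the piece came.

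Myostatin, the product of Mstn, is made by muscle fibres and is the best known brake on muscle mass. Like its close relative GDF11 and like activin A, a dimer of the Inhba product, it binds a type II receptor, ACVR2B or ACVR2A, which then activates a type I receptor that phosphorylates SMAD2 and SMAD3. Follistatin, the product of Fst, and FSTL3 trap these ligands outside the cell, while SMAD7 is an inhibitory SMAD that blocks the receptors and is itself induced by the signal. FSTL1 carries a follistatin-like domain, but it is a separate secreted glycoprotein of muscle and connective tissue cells.

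Of the 7 members with a mean of at least 1 FPKM (reads scaled by transcript length and library size) over the 6 libraries, 4 differed between the groups with an adjusted p-value under 0.05 in edgeR's quasi-likelihood test. Mstn, Gdf11 and Fstl1 rose in EX muscle and Acvr2b fell. The call thus covered 57.1% of the members above the filter, against 17.9% of all 10883 genes tested, split into 9.11% higher and 8.80% lower. With library totals that left out the 20 most abundant genes, the split over all genes was 772 higher and 1259 lower, against 991 and 958 here. For the same 4 members the groups did not overlap, which held for 33.7% of all genes tested. The median log2 fold change of the 7 members was 0.12, and that of all genes tested was -0.001. Inhba, Fst and Fstl3 did not reach the filter, and their values come from a fit without it, in which 12.0% of 16716 genes were past the threshold. Of these 3 members, 0 were past it with edgeR, 0 with DESeq2 (7.02% of all genes) and 0 with limma on log2(FPKM + 0.1) (6.69% of all genes). The unadjusted p-value of Inhba in edgeR was 0.0443.

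**Figure D1:**
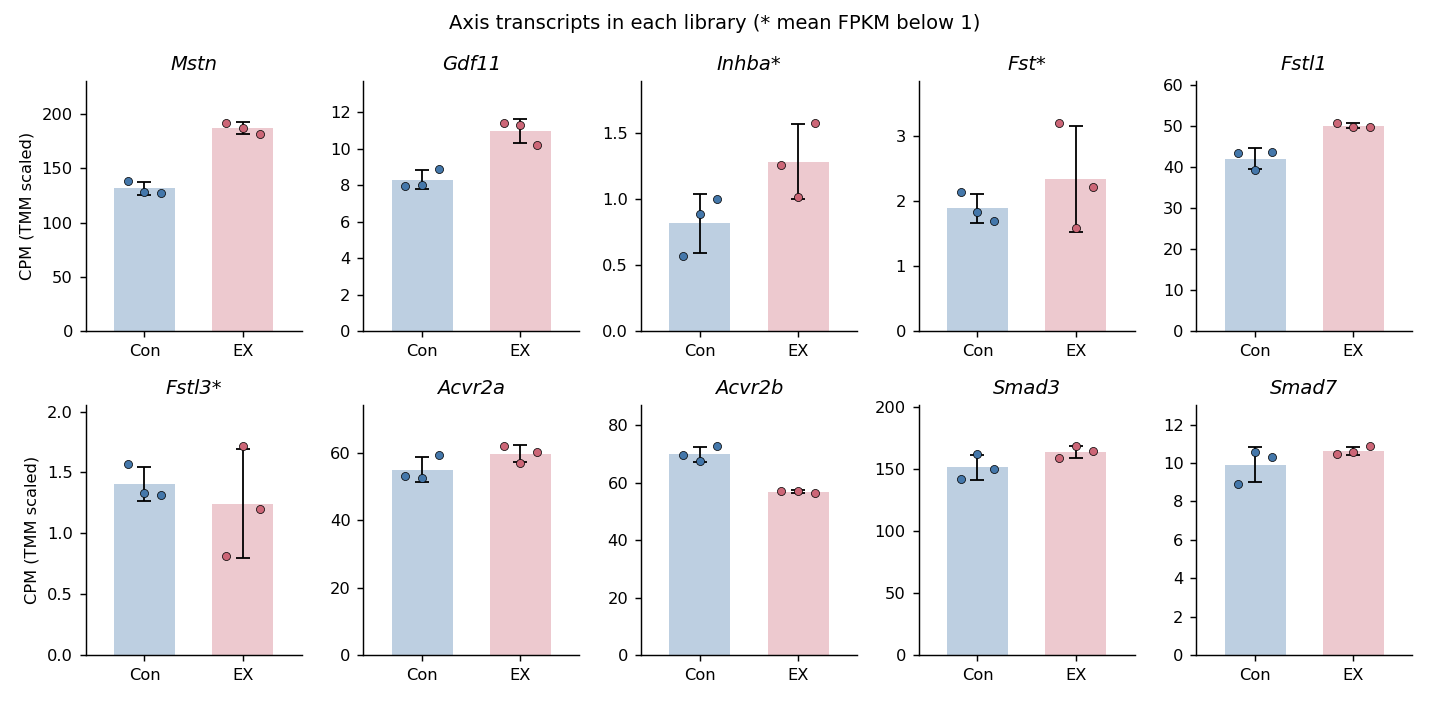
Level of each axis transcript in CPM (counts scaled by TMM to the same library size) in the 3 Con and 3 EX libraries. Points are libraries, bars are group means and error bars are SD; each panel has its own axis from 0. The EX points lie above all Con points for Mstn, Gdf11, Fstl1 and Inhba and below them for Acvr2b, while Fst and Fstl3 are spread widely in EX.

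Compared per transcript length, the levels of the members spanned a wide range, from Inhba at 0.137 ± 0.0322 (SD, n = 3) FPKM in Con to Mstn at 56.1 ± 2.07 FPKM. Below Mstn came Smad3 at 37.3 ± 2.71 FPKM in Con, Fstl1 at 13.0 ± 0.784, Acvr2a at 10.4 ± 0.785 and Acvr2b at 7.08 ± 0.290. Smad7 followed at 2.67 ± 0.249 FPKM, Gdf11 at 1.53 ± 0.114, Fstl3 at 0.877 ± 0.0808 and Fst at 0.810 ± 0.0954. Fst and Fstl3 were the only neighbours in this order whose Con libraries overlapped, and in EX the order was the same but for these genes, which overlapped again, with Fst at 0.997 ± 0.321 FPKM and Fstl3 at 0.747 ± 0.261 FPKM. Mstn supplied between 96.8% and 97.4% of the summed FPKM of the 3 ligands in Con libraries and between 97.2% and 97.3% in EX libraries.

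Mstn (gene ID 17700) was the member with the smallest adjusted p-value. Its CPM was 138.6, 128.6 and 127.7 in the Con libraries and 192.1, 187.6 and 181.9 in the EX libraries, so the lowest EX mouse stood well above the highest Con mouse. These levels rest on 1932 to 2036 counts per Con library and 2865 to 3046 counts per EX library. The log2 fold change of Mstn was 0.51 (standard error 0.04, adjusted p = 6.16e-10 with edgeR), a rise of 1.42-fold with a 95% interval from 1.34-fold to 1.51-fold. By the size of its change it ranked 334 among the 10883 genes tested, and by its level in FPKM it ranked 1050. In all 15 alternative fits Mstn stayed higher in EX and past the threshold, with log2 fold changes from 0.42 to 0.54.

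Gdf11 (gene ID 14561), whose mature protein closely resembles myostatin, changed in the same direction at a much lower level. Its CPM was 7.96, 8.02 and 8.91 in Con and 11.4, 11.3 and 10.2 in EX, and the groups did not overlap. The log2 fold change of Gdf11 was 0.40 (standard error 0.10, adjusted p = 0.00623 with edgeR), or 1.32-fold with an interval from 1.14-fold to 1.53-fold. That interval contains the interval of Mstn, and in each library the Mstn level was between 33.2 and 41.0 times the Gdf11 level in FPKM. On 111 to 181 counts per library, Gdf11 was less firmly called than Mstn, and with limma on log2(FPKM + 0.1) its adjusted p was 0.0787 at a log2 fold change of 0.33. All 3 of 14 alternative fits in which Gdf11 was no longer called were limma fits.

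The start regions of these genes are shown because Mstn and Gdf11 were the ligands called higher in EX. Each run is the 250 bases before the start site, from RefSeq on GRCm38.p6, written 5′ to 3′ on the strand of the gene, at chr1:53061390-53061639 (plus strand) for Mstn and at chr10:128891719-128891968 (minus strand) for Gdf11. Capitals mark 3 motifs searched on both strands, the E-box CANNTG, which myogenic factors such as MYOD bind, the SMAD box CAGAC, and the TATA box TATAAA, and no matches overlapped in these windows.
Mstn: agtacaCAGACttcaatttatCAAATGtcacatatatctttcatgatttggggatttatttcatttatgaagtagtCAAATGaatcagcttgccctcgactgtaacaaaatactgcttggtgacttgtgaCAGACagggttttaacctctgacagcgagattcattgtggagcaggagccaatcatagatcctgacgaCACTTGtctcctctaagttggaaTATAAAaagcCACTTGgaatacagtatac
Gdf11: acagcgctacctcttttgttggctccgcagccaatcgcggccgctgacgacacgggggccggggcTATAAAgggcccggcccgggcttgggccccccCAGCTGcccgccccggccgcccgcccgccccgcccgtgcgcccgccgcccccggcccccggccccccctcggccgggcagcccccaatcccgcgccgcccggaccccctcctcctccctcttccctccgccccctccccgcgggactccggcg

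The Mstn window held 4 E-boxes, 2 SMAD boxes and 1 TATA box, and the last of these began 29 bases before the start site (at -29). The Gdf11 window held 1 E-box, 0 SMAD boxes and 1 TATA box, which began farther from the start site, at -185. Of all 32851 promoter windows of this length in the table, 66.2% held an E-box, 42.2% a SMAD box and 12.4% a TATA box. The windows also differed in base composition, with 38.4% G and C for Mstn and 81.2% for Gdf11, around a median of 52.4% over all windows. A match describes these letters only and does not show that a factor binds there.

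Inhba, which encodes the subunit of activin A, was barely expressed. The Con libraries held 8, 14 and 16 counts of it and the EX libraries 20, 16 and 25. Its CPM was 0.570, 0.887 and 1.002 in Con and 1.257, 1.015 and 1.581 in EX, so the groups nearly touched without overlapping. The log2 fold change of Inhba was 0.63 with a standard error of 0.30 (adjusted p = 0.195 with edgeR in the fit without a filter), and its 95% interval reached from 1.01-fold to 2.36-fold. At this depth a rise of that size was not distinguishable from the spread after adjustment.

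**Figure D2:**
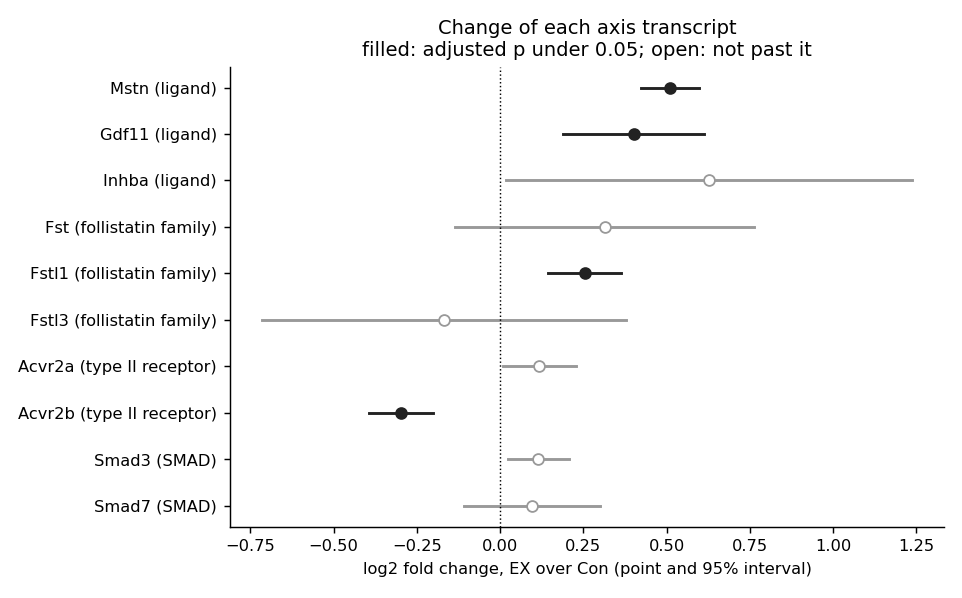
Log2 fold change (EX over Con) of each member on the horizontal axis with its 95% interval, from edgeR. Filled points have an adjusted p-value under 0.05; Mstn, Gdf11 and Fstl1 lie to the right of 0 and Acvr2b to the left, and the widest intervals are those of Inhba and Fstl3, both under 2 CPM.

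Among the follistatin family, Fstl1 rose and the 2 ligand traps were not past the threshold. The CPM of Fstl1 (gene ID 14314) was 43.4, 39.2 and 43.6 in Con and 50.8, 49.7 and 49.8 in EX, with the EX libraries tightly grouped above all Con libraries. Its log2 fold change was 0.25 (standard error 0.05, adjusted p = 0.00105 with edgeR), or 1.19-fold with an interval from 1.11-fold to 1.29-fold. On the FPKM scale this change was smaller, 0.20 with limma on log2(FPKM + 0.1), and the adjusted p was 0.0536.

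Counts of Fst were 30, 29 and 27 in the Con libraries against 51, 25 and 35 in the EX libraries. In CPM, EX replicate 1 was the highest and EX replicate 2 the lowest of all. Its CPM was 1.89 ± 0.227 (SD, n = 3) in Con and 2.33 ± 0.816 in EX, with overlapping groups. The log2 fold change was 0.31 with a standard error of 0.22 (adjusted p = 0.439 with edgeR), and it was 0.022 without EX replicate 1 and 0.531 without EX replicate 2 (adjusted p = 0.186). Counts of Fstl3 were 22, 21 and 21 in the Con libraries against 13, 27 and 19 in the EX libraries, so that the lowest and the highest library were both EX. Its log2 fold change was -0.17 with a standard error of 0.27 (adjusted p = 0.756), and it turned to 0.065 without EX replicate 1. The interval for Fst ran from 0.910-fold to 1.70-fold and that for Fstl3 from 0.609-fold to 1.30-fold, so a rise of the size fitted for Mstn lay inside the interval of Fst and outside that of Fstl3.

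The type II receptors differed from each other. The CPM of Acvr2b (gene ID 11481), the receptor with the higher affinity for myostatin, was 69.7, 67.5 and 72.7 in Con and 57.1, 57.3 and 56.4 in EX, and all EX libraries lay below all Con libraries. Its log2 fold change was -0.30 (standard error 0.05, adjusted p = 3.74e-05 with edgeR), or 0.814-fold with an interval from 0.760-fold to 0.870-fold. All 15 alternative fits kept Acvr2b lower and past the threshold, with log2 fold changes from -0.38 to -0.27. The CPM of Acvr2a was 53.2, 52.6 and 59.3 in Con and 61.9, 57.0 and 60.4 in EX, where Con replicate 3 fell among the EX values. Its log2 fold change was 0.12 with a standard error of 0.05 (adjusted p = 0.131), and it passed the threshold only when Con replicate 3 was left out (adjusted p = 0.0289).

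Because both receptors are read in the same libraries, their ratio does not depend on how libraries are scaled. The FPKM of Acvr2b was 0.699, 0.685 and 0.652 of that of Acvr2a in the Con libraries and 0.493, 0.537 and 0.498 of it in the EX libraries. The mean ratio was thus 0.679 ± 0.0242 (SD, n = 3) in Con and 0.509 ± 0.0241 in EX. The log2 difference was -0.41, and the exact permutation test gave p = 0.1, two-sided, the smallest that 3 mice against 3 allow. Adjusted over the 3 ratios computed here, no exact test of this size could pass the threshold. The ratio of Fst to Mstn was 0.0156, 0.0146 and 0.0131 in Con and 0.0167, 0.00906 and 0.0130 in EX, a log2 difference of -0.20 (exact permutation p = 0.6) that became 0.037 without EX replicate 2.

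**Figure D3:**
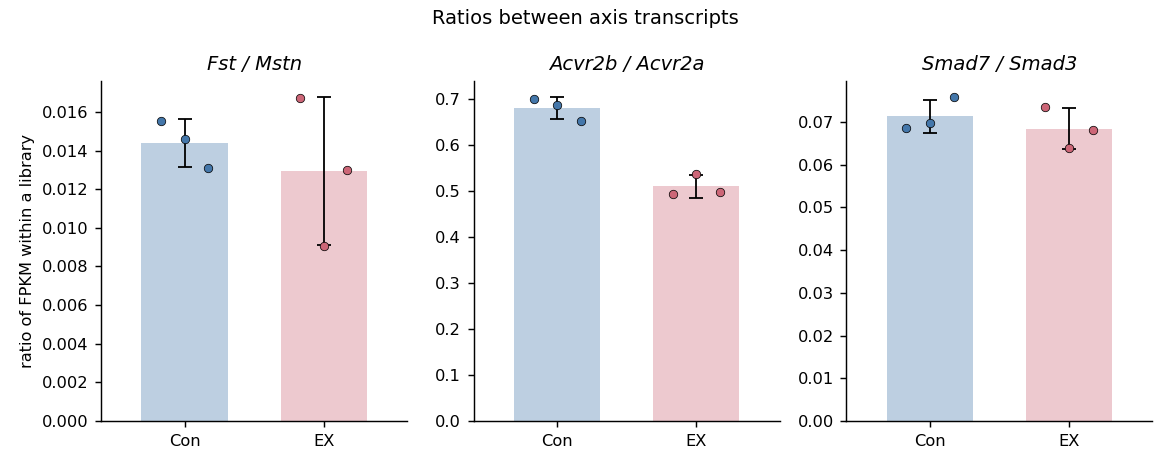
Ratio of FPKM between pairs of axis transcripts within each library, for Fst over Mstn, Acvr2b over Acvr2a and Smad7 over Smad3. Points are libraries, bars are group means and error bars are SD; only Acvr2b over Acvr2a separates the groups, at 0.679 in Con and 0.509 in EX.

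Neither SMAD of the axis passed the threshold. The CPM of Smad3, which enters the nucleus with SMAD4 after phosphorylation, was 141.7, 162.3 and 150.1 in Con and 159.0, 168.3 and 164.9 in EX, and Con replicate 2 lay among the EX libraries. Its log2 fold change was 0.11 with a standard error of 0.05 (adjusted p = 0.0791 with edgeR), and it was 0.165 without Con replicate 2 (adjusted p = 0.0213) and 0.067 without Con replicate 1 (adjusted p = 0.299). The CPM of Smad7 was 8.90, 10.6 and 10.3 in Con and 10.5, 10.6 and 10.9 in EX, with Con replicate 1 below the other libraries. Its log2 fold change was 0.10 with a standard error of 0.10 (adjusted p = 0.556), its interval ran from 0.928-fold to 1.23-fold, and it was 0.025 without Con replicate 1 and turned to -0.032 with limma on log2(TPM + 0.1). The ratio of Smad7 to Smad3 in FPKM was 0.0714 ± 0.00387 (SD, n = 3) in Con and 0.0685 ± 0.00481 in EX (exact permutation p = 0.4).

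The transcript length implied by the deposited counts and FPKM was nearly the same in all 6 libraries for the called members. It was between 2373 and 2386 bases for Mstn, between 5489 and 5529 for Gdf11, between 3277 and 3290 for Fstl1 and between 10015 and 10059 for Acvr2b over the 6 libraries. Some members that were not called varied more, with 3681 to 4040 bases for Smad7 and 2231 to 2406 for Fst. Their ratios above are in FPKM and so depend on these lengths. The counts of all 10 members were whole in every library. In these bulk samples, fewer cells of a type and less RNA per cell cannot be told apart for any of these genes.

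The rest of the transforming growth factor beta (TGF-beta) family pathway was taken from a list written with earlier results of these data known. It held 78 genes, of which 76 were in the table and 53 above the filter. Of these 53 genes, 5 were higher and 9 lower in EX with edgeR, or 26.4% called against 17.9% of all genes, and their median log2 fold change was -0.05. With totals that left out the 20 most abundant genes, 2 were higher and 12 lower. Limma on log2(FPKM + 0.1) called 10 of the 53, against 13.3% of all genes, and DESeq2 called 7, against 11.3% of all genes. With edgeR, 8 were called without EX replicate 2 (14.1% of all genes) and 8 without EX replicate 3 (12.3% of all genes).

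Among genes of the bone morphogenetic protein (BMP) branch, Nog, an antagonist that traps BMPs outside the cell, fell from 8.18, 6.55 and 6.58 CPM to 4.478, 5.03 and 5.398, a change of -0.51 (adjusted p = 0.00805 with edgeR) that was -0.44 without EX replicate 1 (adjusted p = 0.0524). Bmp4 fell by 0.47 (adjusted p = 0.0138) and Bmp5 by 0.31 (adjusted p = 0.0251) on the log2 scale with edgeR. DESeq2 called 0 of the 7 other ligands tested (11.3% of all genes), against 2 with edgeR (17.9% of all genes). Leaving out Con replicate 3 or EX replicate 3 took Bmp4 over the threshold (adjusted p = 0.0672 and 0.09), and leaving out any of Con replicates 2 and 3 and EX replicates 2 and 3 did so for Bmp5 (adjusted p from 0.051 to 0.0959). The change of Inha, the inhibin alpha subunit, was 0.38 and not past the threshold (adjusted p = 0.0775), and it was 0.51 without Con replicate 2 (adjusted p = 0.0378) and 0.241 without Con replicate 1 (adjusted p = 0.308). Its lowest value in the 14 alternative fits was 0.152. The transcript length implied by its counts and FPKM was 1891 bases in EX replicate 2 and between 1482 and 1590 in the other libraries.

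Of 11 other receptors and coreceptors, 1 was called with edgeR, against 17.9% of all genes. Bmpr1a, a type I receptor for BMPs, fell by 0.21 on the log2 scale (adjusted p = 0.00484 with edgeR), from 104.3 ± 6.76 (SD, n = 3) to 90.2 ± 6.28 CPM, and without EX replicate 2 its adjusted p was 0.0633. Acvr1b, a type I receptor for activin and myostatin, was at 94.4 ± 4.78 CPM in Con and 100.1 ± 1.10 in EX (log2 fold change 0.08, adjusted p = 0.208).

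Of 10 other extracellular binders, 3 were called with edgeR, namely Nog, Ltbp4 and Wfikkn2, against 17.9% of all genes. Ltbp4, which holds latent TGF-beta in the matrix, fell from 157.2, 151.6 and 158.1 CPM to 115.4, 124.9 and 118.2, or by 0.38 on the log2 scale (adjusted p = 1.24e-07). Wfikkn2, whose product binds myostatin and GDF11, was at 18.6 ± 0.735 CPM in Con and 21.4 ± 0.906 in EX, a change of 0.21 (adjusted p = 0.0443). The change of Wfikkn2 stayed between 0.129 and 0.232 in the 15 alternative fits, but it was not past the threshold in 14 of them, among them each fit without 1 library. The proteases that release these ligands from their propeptides gave 0 calls among 3 genes with edgeR, DESeq2 and limma on log2(FPKM + 0.1). These fits called 17.9%, 11.3% and 13.3% of all genes.

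Inside the cell, Smad4, the shared partner of the receptor SMADs, fell by 0.13 on the log2 scale (adjusted p = 0.0483), a call lost in 9 of 15 alternative fits, with changes from -0.216 to -0.106. Smurf2, a ubiquitin ligase that acts on SMADs and receptors, fell by 0.22 (adjusted p = 0.00471), and Nedd4l, a ligase of the same family, rose by 0.18 (adjusted p = 0.0191, not past the threshold in 7 of 15 fits, with changes from 0.086 to 0.212). Of 9 genes known to respond to SMADs, 3 rose and 2 fell with edgeR, against 9.11% higher and 8.80% lower of all genes. DESeq2 called 3 of the 9 (11.3% of all genes) and limma on log2(FPKM + 0.1) called 4 (13.3% of all genes). Ccn2, a matrix-associated growth factor, rose by 0.42 (adjusted p = 0.000549), Cdkn1a by 0.27 (adjusted p = 0.0452) and Id1 by 0.20 (adjusted p = 0.0327). Junb fell by 0.46 (adjusted p = 0.000227) and Id3 by 0.29 (adjusted p = 0.00112), and Id1 and Id3 are both classical targets of the BMP branch. The calls of Cdkn1a and Id1 were lost in 13 and 10 of 15 alternative fits. Of the fits without 1 library, those that lost a call were the ones without Con replicates 2 and 3 and EX replicates 2 and 3 for Smad4, Con replicate 3 and EX replicates 2 and 3 for Nedd4l, Con replicate 2 and EX replicates 2 and 3 for Id1, and all but Con replicate 1 for Cdkn1a.

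**Figure D4:**
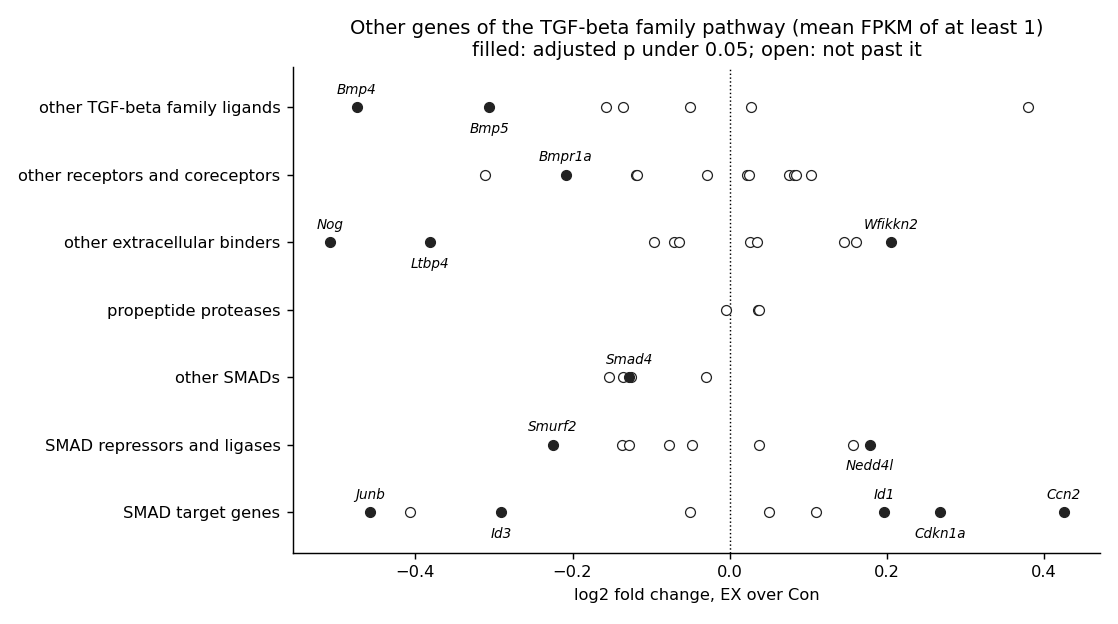
Log2 fold change (EX over Con, horizontal axis) of the 53 other pathway genes above the filter, in rows by role. Filled and named points have an adjusted p-value under 0.05 in edgeR; Ccn2 lies farthest to the right at 0.42 and Nog farthest to the left at -0.51.

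The pieces of muscle also differed in fibre and cell type markers, and the part of these differences in the changes above was not tested. Over all genes tested, 9.11% were higher and 8.80% lower with edgeR, and limma on log2(FPKM + 0.1) called 13.3%. The 10 fast fibre genes summed to between 127200 and 128200 FPKM in Con and between 137200 and 140500 in EX, and 8 of them rose, by 0.35 at most (Pvalb, adjusted p = 7.53e-08 with edgeR), while limma on log2(FPKM + 0.1) called 4 of the 10. Myh4, the myosin heavy chain of the fastest fibres, was not called (log2 fold change 0.04, adjusted p = 0.406), and its sign turned to -0.018 in that limma fit. Slow fibre genes, at 132.8 to 142.4 FPKM in sum in Con, came to 361.2 to 394.4 in EX, and 9 of 9 tested rose. The members of this list rose very unequally. Myh7, the slow myosin heavy chain, went from 13 to 19 counts per Con library to between 1522 and 1737 per EX library (100.6-fold, adjusted p = 2.3e-26, rank 1 of all genes tested by size of change). The slow troponin Tnni1 rose 28.7-fold (adjusted p = 2.37e-16), and Myl3, which at 74.2 ± 3.05 (SD, n = 3) FPKM was the most abundant of the list in Con, rose 1.32-fold (adjusted p = 1.22e-05). Fibroblast genes rose in 3 of 10 cases, among them Col3a1 by 0.76 (adjusted p = 8.34e-15 with edgeR). Pdgfra changed by -0.14 (adjusted p = 0.173) and Gsn by -0.02 (adjusted p = 0.714). The sum of the fibroblast list was 602.4 to 608.8 FPKM in Con and 629.8 to 644.5 in EX. Tendon genes rose in 4 of 8 cases, with sums of 77.5 to 86.1 FPKM in Con and 105.7 to 110.3 in EX.

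Endothelial genes fell in 6 of 10 cases and rose in 1, with sums of 314.5 to 320.8 FPKM in Con and 270.6 to 273.7 in EX. Flt1, a receptor of vascular endothelial growth factor, fell by 0.27 (adjusted p = 9.06e-06 with edgeR). Macrophage genes summed to 44.0 to 46.1 FPKM in Con and 77.7 to 84.7 in EX, and 6 of 7 tested rose, with Lyz2 at 0.85 (adjusted p = 6.16e-10). Of 7 genes of satellite cells and myoblasts, 2 rose, among them Myog by 0.99 (adjusted p = 2.51e-06), while Pax7 changed by -0.08 (adjusted p = 0.717), with sums of 47.5 to 50.6 FPKM in Con and 60.1 to 62.0 in EX. Under the filter, Mymk, which encodes the fusion protein myomaker, had 1, 0 and 1 counts in the Con libraries against 24, 18 and 23 in the EX libraries (adjusted p = 2.38e-08 when no filter was set). Adipocyte genes rose in 6 of 8 cases, with Retn 2.93-fold (adjusted p = 9.53e-05), Cidec 2.83-fold (adjusted p = 3.08e-06) and Cfd 2.45-fold higher (adjusted p = 1.55e-12), while Lpl was lower at 0.759-fold (adjusted p = 1.34e-08). The sum of the list, 831.4 to 925.5 FPKM in Con and 813.5 to 836.5 in EX, was mostly Fabp4, at 658.1 ± 41.1 (SD, n = 3) FPKM in Con and 589.3 ± 10.4 in EX (log2 fold change -0.09, adjusted p = 0.112). Every listed marker had a count in at least 1 library.

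The 3 genes whose pattern over the 6 libraries lay nearest to that of Mstn were Atp23, Ppp1r3c and Ucp3. The root mean square difference of their centred log2 CPM from that of Mstn was 0.0268, 0.0343 and 0.0389, against a median of 0.273 over all genes tested. Ppp1r3c encodes a glycogen-targeting subunit of protein phosphatase 1 and Ucp3 a mitochondrial carrier of muscle. Their log2 fold changes, 0.53 for Atp23, 0.55 for Ppp1r3c and 0.49 for Ucp3, are close to that of Mstn by the way the genes were chosen and are given without a test.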

How the data were processed

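The authors extracted total RNA, sequenced paired-end libraries on the DNBseq platform and removed reads of low quality. Their methods name HISAT and the GRCm39 assembly, while the submitters' processing notes list GRCm38.p6, cutadapt, featureCounts and MultiQC, without versions. The authors deposited estimated counts (not normalized), FPKM and TPM, 1 column of each per library. The 6 columns of group means were not used. The labels give no batch, and each replicate was taken to be 1 mouse.

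Counts were rounded, scaled by TMM and tested with edgeR 4.0.16 in R 4.3.3 (quasi-likelihood test, Benjamini-Hochberg over all genes tested, threshold 0.05). The filter was a mean of 1 FPKM or more over the libraries. Standard errors and 95% intervals came from the same fit. Totals per library were between 13845362 and 16240431 counts, and intervals cover the spread between 3 mice. Ratios were compared by two-sided exact permutation tests. Alternatives were DESeq2 1.42.0, limma 3.58.1 on log2(FPKM + 0.1), log2(FPKM + 1) or log2(TPM + 0.1), median ratio factors, totals without the 20 most abundant genes, no filter, a mean of 5 FPKM, a replicate block, and each library left out. Log2 values with a pseudocount understate the change of low genes. The edgeR and DESeq2 tests, and limma on log2(CPM + 0.1), were also run on simulated counts, with an outcome that is not given here. Limma on FPKM or TPM and the exact permutation tests were not.

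The members and lists were chosen with earlier results of these data known. Named were all members, each pathway gene past the threshold, up to 3 others per role, up to 5 genes per marker list by level or change, and the 3 genes nearest to Mstn by root mean square difference. Outside this rule, the markers Pdgfra, Pax7, Cfd, Myh4 and Scx were named after their values were seen. Grem1 and Cfc1 were not analysed here, and 1 further gene was left out of the pathway list and is not reported here.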

Additional observations from a re-analysis of the deposited data

How the results depend on the processing

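Mstn and Acvr2b stayed past the threshold in the same direction in all 15 alternative fits. The number of members called was 4 with edgeR and 2 with limma on log2(FPKM + 0.1), on log2(FPKM + 1) and on log2(TPM + 0.1), where Gdf11 (adjusted p from 0.0751 to 0.0912) and Fstl1 (0.053 to 0.0848) were no longer past the threshold, and it ranged from 4 to 5 with single libraries left out. These limma fits called 13.3%, 13.3% and 18.6% of all genes, and the fits without 1 library 12.3% to 17.1%. On the limma scales the median of all genes was between -0.091 and -0.049, and the share of calls that were higher in EX fell from 50.8% to between 16.8% and 28.5%, and to 38% with totals that left out the 20 most abundant genes. DESeq2 called 1228 of all genes, against 1949 with edgeR. The number of pathway genes called was 14 with edgeR, 7 with DESeq2 and 8 above a mean of 5 FPKM, where fewer genes were tested and 20.5% of all were called, and leaving out single libraries gave 8 to 15, with 8 each without EX replicate 2 and without EX replicate 3. The limma fits took FPKM or TPM without TMM scaling, and the TMM factors were 1.011 to 1.027 in Con and 0.971 to 0.988 in EX. The causes of the shifts between fits were not tested.

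Signs turned for Fstl3 without EX replicate 1 (0.065, in a range from -0.464 with single libraries left out), for Smad7 (-0.032) and Acvr1b (-0.006) with limma on log2(TPM + 0.1), and for the ratio of Fst to Mstn without EX replicate 2 (0.037). The log2 difference of that ratio ranged from -0.406 to 0.037 with single libraries left out, that of Acvr2b to Acvr2a from -0.454 to -0.392 and that of Smad7 to Smad3 from -0.113 to -0.012. Among markers, Myh4 was at -0.018, -0.018 and -0.054 with limma on log2(FPKM + 0.1), log2(FPKM + 1) and log2(TPM + 0.1), and Scx at -0.016, -0.013 and -0.051, and at -0.064 without Con replicate 3 and -0.051 without EX replicate 3, in a range up to 0.171 with single libraries left out.

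The replicate numbers do not pair the mice: deviations of libraries with the same number correlated at -0.084, -0.052 and -0.073 across genes. With a replicate block, 4 members and 10 pathway genes were called, against 16.4% of all genes. Inhba, Fst and Fstl3 had 8 to 51 counts per library, and the parts of depth and of the spread between mice in their wide intervals were not separated.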

Other observations

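Acvr1c, a type I receptor for activin and related ligands that is best known from fat cells, was chosen after its values were seen. It lay under the filter, with 0, 1 and 1 counts in the Con libraries and 4, 4 and 6 in the EX libraries, and its adjusted p was 0.0624 with edgeR in the fit without a filter. The adipocyte marker Cfd was at 10.0, 9.86 and 10.8 CPM in Con and 23.5, 25.7 and 26.2 in EX, while in the same marker list Lpl was 0.759-fold (adjusted p = 1.34e-08 with edgeR) and Fabp4 had a log2 fold change of -0.09 (adjusted p = 0.112). The paper states that fat between the muscles was removed, and whether the samples differed in fat content was not tested.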
